A study of Mus musculus with 18 samples.

Results

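Genes that cause inherited dystonia on their own were followed through the differentiation of mouse oligodendrocyte progenitor cells (OPCs) with and without Thap1, which is itself such a gene. The set was Tor1a, Gnal, Sgce, Gch1, Ano3, Prkra, Kmt2b, Tubb4a and Vps16, taken by gene symbol from a table of transcript abundance. All 9 were present among 38046 genes, through 43 transcripts, and 8 of the 9 reached the level needed for testing, as did 12475 genes in all. Gch1 was the member below it. Clonal OPC lines grown from primary neural stem cells were compared, 3 labelled control (clones D7, D3 and E8) and 3 labelled Thap1 null (clones 3F, D6 and 7F). Each clone gave 1 RNA-seq library as OPCs in growth medium with PDGF-AA, and 1 after 2 days (DIV2) and 1 after 4 days (DIV4) in oligodendrocyte differentiation medium with the thyroid hormone T3. That makes 18 libraries and 3 per group, and each line is 1 clone in culture. The labels do not say how Thap1 was removed, or which parent line each clone came from.

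Dystonia is a movement disorder of sustained or repetitive muscle contractions, usually studied in neurons of the basal ganglia and cerebellum. Its genes work in several processes: the nuclear envelope and endoplasmic reticulum (Tor1a), endosome and lysosome fusion (Vps16), receptor signalling in the striatum (Gnal), membrane complexes and membrane lipids (Sgce, Ano3), synthesis of the dopamine cofactor tetrahydrobiopterin (Gch1), the stress response that slows translation (Prkra), chromatin (Kmt2b) and microtubules (Tubb4a). THAP1 is a zinc-finger transcription factor reported to bind the TOR1A promoter in other cells. OPCs stop dividing and make myelin when they differentiate, and Tubb4a is a beta-tubulin of neurons and oligodendrocytes whose mutations also cause a leukodystrophy.

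The values are transcript abundances normalised to the library total (TPM), rescaled between libraries by median-of-ratios factors. Rescaling was needed because 3 noncoding features (Gm15662, Gm26924 and mmu-mir-6236) took 64.8% to 88.0% of the deposited TPM of the control OPC libraries. Factors were 0.124 to 0.317 in those 3 libraries and 0.720 to 1.99 in the other 15. TPM keeps no read depth, so p-values measure only the spread between clones within groups. The limma fit used below pools that spread over all 18 libraries, so groups of unlike spread share 1 SE. It counts the 3 libraries of a clone as independent, except in the comparison over all stages. Coding transcripts of Thap1 averaged 4.06 ± 0.573 rescaled TPM in OPCs of control clones and 0.620 ± 0.148 in those of null clones, 2.41 ± 0.452 and 0.554 ± 0.187 at DIV2, and 2.99 ± 0.703 and 0.474 ± 0.283 at DIV4 (SD, n = 3 each, two-sided exact permutation p = 0.1 at each stage, the smallest possible). On the deposited scale the exact permutation p in OPCs was 0.4, and the total over all Thap1 transcripts was higher in null in OPCs (10.6 ± 1.18 against 6.08 ± 1.90 rescaled TPM; change 0.75, SE 0.21, adjusted p = 0.0336). That total did not overlap at DIV2 either (8.04 ± 1.29 in null and 4.62 ± 0.673 in control, adjusted p = 0.113), and overlapped at DIV4. All 6 OPC markers were detected in each group, and their sum was lower in null without overlap at each stage: 619 to 822 in control and 418 to 537 in null OPCs, 223 to 406 and 158 to 203 at DIV2, and 307 to 419 and 175 to 214 at DIV4. Singly the OPC markers were mixed, with log2 changes of -1.38 to 0.43 in OPCs, -1.13 to 0.05 at DIV2 and -1.68 to 0.32 at DIV4. By limma 1, 0 and 1 of the 6 were lower at an adjusted p under 0.05, and 0 were higher. Of all genes tested, 12.2%, 2.83% and 4.88% passed that threshold. The part of the lower OPC marker sum in the genotype differences given below was not tested. The summed level of 8 oligodendrocyte markers was 51.9 to 507 rescaled TPM in OPCs, 2279 to 5320 at DIV2 and 1100 to 11363 at DIV4. The 5 microglial markers and the 5 mesenchymal markers summed to at most 0.634 and 1.05 in a library. The 5 neuronal markers summed to 14.2 to 23.3 in control and 6.85 to 11.4 in null OPCs, without overlap. At DIV2 they summed to 49.5 to 56.1 and 34.8 to 50.3, and at DIV4 to 38.6 to 88.8 and 41.0 to 72.1. In each group at those stages only 1 of the 5 averaged at least 1 rescaled TPM, and only Tubb3 was tested. The 5 astrocyte markers reached 283 in control DIV4, and 8 cell-cycle genes summed to 63.0 in control D3 OPCs against 538 to 678 in the other 5 OPC libraries. After differentiation the cell-cycle sum was 39.9 to 90.5. Control D3 OPCs also had the highest oligodendrocyte marker sum of the OPC libraries (507), so this library was unlike the other OPCs in both lists.

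Per length, the dystonia genes spanned a wide range of levels. Mean rescaled TPM over the 18 libraries was 35.7 for Tubb4a, 29.0 for Vps16, 14.2 for Sgce, 12.2 for Tor1a, 10.04 for Prkra, 3.39 for Kmt2b, 2.53 for Gnal, 1.24 for Ano3 and 0.196 for Gch1. The highest library exceeded the lowest 21.5-fold for Tubb4a and 15.9-fold for Ano3, but between 2.26-fold and 3.4-fold for Tor1a, Gnal, Vps16, Sgce, Prkra and Kmt2b. Tubb4a and Vps16 changed places in this order with stage: in control OPCs Vps16 was at 27.9 ± 9.12 and Tubb4a at 7.6 ± 0.742, and at control DIV4 they were at 25.8 ± 6.92 and 71.6 ± 42.5 (SD, n = 3). The neighbours Sgce, Tor1a and Prkra had ranges over libraries that overlapped, as did Kmt2b and Gnal.

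**Figure D1:**
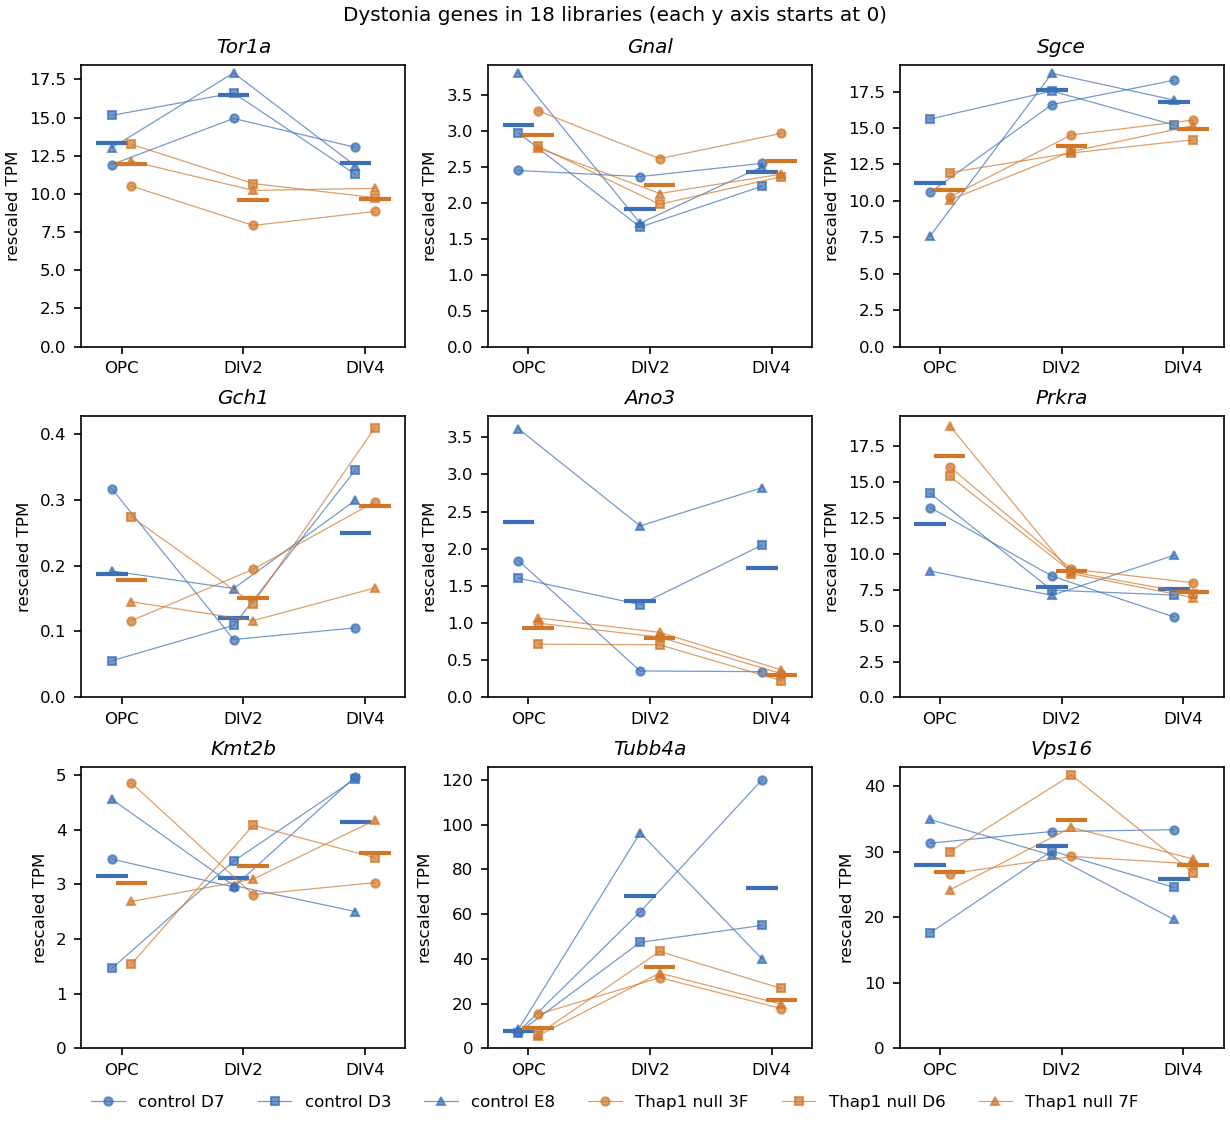
Rescaled TPM (y axis, from 0) of the 9 dystonia genes by stage (x axis) in 3 control clones (blue) and 3 Thap1 null clones (orange). Points are libraries, thin lines join the libraries of a clone and thick bars are group means; Tubb4a climbs from 5.58 to 15.1 in OPCs to as much as 120 at DIV4, and Tor1a separates the genotypes at DIV2.

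Of the 8 tested dystonia genes, 2 differed between genotypes, each at 1 stage and lower in null. A gene was called when its limma p, adjusted over all 12475 genes, was under 0.05. In OPCs 0 of 8 were called by limma, where 12.2% of all genes were, and 1 (Prkra) had an unadjusted p under 0.05. At DIV2 only Tor1a was called, against 2.83% of all genes, and at DIV4 only Tubb4a, against 4.88%. Counts of 0 or 1 among 8 genes are too small to set the members apart from all genes. Over all stages, with each clone counted once, 0 of 8 were called against 3.4% of all genes (limma), and 3 had an unadjusted p under 0.05: Tubb4a (change -0.77, SE 0.16, adjusted p = 0.059), Tor1a (-0.39, SE 0.10, adjusted p = 0.0916) and Prkra (0.21, SE 0.08, adjusted p = 0.171). The median change of the 8 was -0.02 in OPCs, -0.10 at DIV2 and -0.14 at DIV4, beside 0.04, 0.00 and -0.02 over all genes tested. The 3 control and 3 null values did not overlap for 2 of the 8 in OPCs, 4 at DIV2 and 2 at DIV4, beside 25.4%, 30.8% and 26.8% of all genes. Those in OPCs include Ano3, which reached the level for testing only through the control groups, where it is higher. Ano3 is counted in the 8 throughout as a description. Changes here and below are differences in log2(rescaled TPM + 1), which understate the change of low genes.

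Differentiation moved more of them. From control OPCs to DIV2, Tubb4a and Sgce rose and Prkra and Gnal fell, 4 of 8 against 35.1% of all genes. From control OPCs to DIV4, Tubb4a and Sgce rose and Prkra fell, 3 of 8 against 32.3%. In null clones Tubb4a rose and Prkra fell at both stages, 2 of 8 against 27.9% at DIV2 and 33.4% at DIV4. These shares lie near those of all genes, and the falls depend on scaling, as given with each gene. The interaction, the change from OPC in null minus that in control, was called for 0 of 8 at DIV4 (2.78% of all genes, 347 genes, or 528 with clone as a replicate block). At DIV2 it was called for 0 of 8 (0.465%, 58 genes, or 89 with the block). In each, 1 member had an unadjusted p under 0.05, Tubb4a at DIV4 and Tor1a at DIV2. For the change from DIV2 to DIV4, null minus control, the lowest limma adjusted p of a member was 0.828, for Tor1a (0.43, SE 0.19). From DIV2 to DIV4 Tor1a was higher in 0 of 3 control clones and 2 of 3 null clones.

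**Figure D2:**
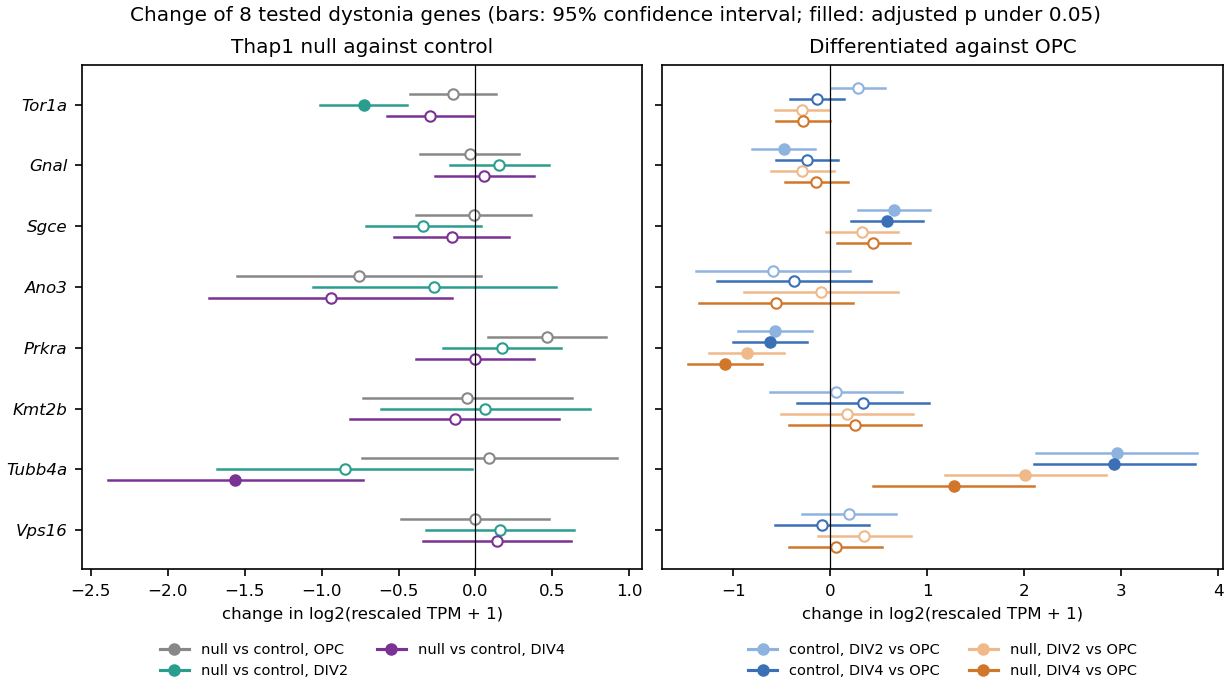
Change in log2(rescaled TPM + 1) of the 8 tested dystonia genes, null against control at each stage (left) and differentiated cells against OPCs within a genotype (right), with 95% confidence intervals. Filled points have an adjusted p under 0.05: Tor1a at DIV2 (-0.73) and Tubb4a at DIV4 (-1.56) on the left, and Tubb4a, Sgce, Prkra and Gnal on the right.

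Tor1a encodes torsinA, an ATPase of the endoplasmic reticulum and nuclear envelope, and lies on chromosome 2 at 30960627 to 30967933, minus strand (GRCm38, ENSMUSG00000026849). The promoter table held a window for 6 of the 9 members. A match to the THAP1 consensus TNNGGGCA, searched on both strands in the 250 bases before and 50 after each RefSeq start, was found in 2 of the 6, Tor1a and Vps16. It was also found in 15.7% of 27025 genes with a window and in 15.4% of the tested ones. The 2 upstream stretches that hold it are shown, since the study removes THAP1. They are from RefSeq on GRCm38.p6, on the strand of the gene and 5′ to 3′, with the match, which reads on the opposite strand, in capitals. That of Tor1a is chr2:30967934-30968168 (minus strand, 235 bases, match at 30968008 to 30968015, 97 to 90 bases before the RefSeq start) and that of Vps16 is chr2:130424070-130424319 (plus strand, 250 bases, match at 130424266 to 130424273, 54 to 47 bases before).
Tor1a: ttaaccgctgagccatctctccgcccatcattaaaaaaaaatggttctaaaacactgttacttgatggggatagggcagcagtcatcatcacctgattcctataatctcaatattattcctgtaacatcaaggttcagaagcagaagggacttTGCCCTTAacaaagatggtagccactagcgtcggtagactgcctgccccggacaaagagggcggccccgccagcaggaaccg
Vps16: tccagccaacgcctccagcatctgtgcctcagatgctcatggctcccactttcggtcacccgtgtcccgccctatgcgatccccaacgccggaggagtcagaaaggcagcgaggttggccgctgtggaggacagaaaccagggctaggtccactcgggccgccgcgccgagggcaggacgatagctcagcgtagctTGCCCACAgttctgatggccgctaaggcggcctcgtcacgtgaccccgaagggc

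In OPCs Tor1a was at 11.9, 15.1 and 13 rescaled TPM in control D7, D3 and E8 and at 10.5, 13.3 and 12.1 in null 3F, D6 and 7F, so the genotypes overlapped (change -0.15, SE 0.13, adjusted p = 0.49). At DIV2 the control clones had 14.9, 16.6 and 17.9 and the null clones 7.93, 10.7 and 10.2. Every null clone lay below every control clone, with a mean 0.583 times that of control (change -0.73, SE 0.13, adjusted p = 0.00651). At DIV4 the values were 13, 11.3 and 11.8 in control and 8.85, 9.75 and 10.4 in null. They again did not overlap, but the change of -0.29 (SE 0.13, 95% interval -0.57 to -0.01) had an adjusted p of 0.222. From OPC to DIV2 Tor1a was higher in 3 of 3 control clones (by 0.13 to 0.43) and lower in 3 of 3 null clones (by -0.37 to -0.23). Neither change was called (adjusted p = 0.104 and 0.113), nor was the difference between them (interaction -0.58, SE 0.19, adjusted p = 0.167).

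Not all of the Tor1a signal at DIV2 came from its 1 protein-coding transcript. The 4 other listed transcripts held 3.49, 7.71 and 9.63 rescaled TPM in control D7, D3 and E8 and 1.69, 3.30 and 3.82 in null 3F, D6 and 7F. The coding transcript alone was at 11.5, 8.90 and 8.30 in control and at 6.25, 7.38 and 6.41 in null, still without overlap. A fit on coding transcripts gave -0.44 (adjusted p = 0.147). That fit called lower Tor1a in null at DIV2 and DIV4 against null OPCs (-0.44, adjusted p = 0.0368, and -0.43, adjusted p = 0.0379). The genotype call at DIV2 was also lost without control E8 (adjusted p = 0.0578), null 3F (0.0634) or null 7F (0.0613), on the deposited scale (0.227) and in a fit of only the 6 libraries (0.0555), while the change stayed between -0.91 and -0.44 in the 15 alternatives run.

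**Figure D3:**
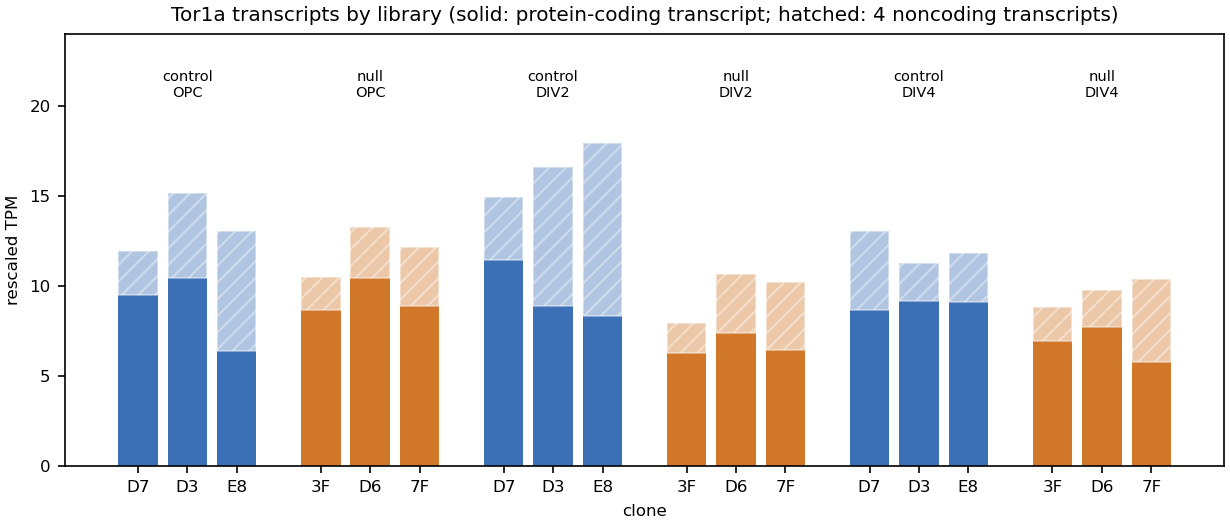
Rescaled TPM of Tor1a in each library (bars, by clone, genotype and stage), split into the protein-coding transcript (solid) and the 4 noncoding transcripts (hatched). At DIV2 the coding part is 8.30 to 11.5 in control and 6.25 to 7.38 in null, and the noncoding part is 3.49 to 9.63 and 1.69 to 3.82.

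Of the torsin relatives and the membrane proteins that activate torsins, 5 of 6 were tested, and 0 differed between genotypes at any stage by the limma test. The genotype shares of all genes were 12.2% in OPCs, 2.83% at DIV2 and 4.88% at DIV4. From control OPC to DIV4 1 rose and 1 fell, where 32.3% of all genes were called. Tor1aip2, which encodes the torsin activator LULL1, rose from 25.7 ± 5.52 to 42.6 ± 6.13 rescaled TPM (change 0.72, SE 0.14, adjusted p = 0.002). Tor2a fell from 11.8 ± 1.39 to 7.62 ± 1.17 (SD, n = 3; change -0.57, SE 0.14, adjusted p = 0.00585), a fall lost without control D7 (adjusted p = 0.056) and turned to 1.80 on the deposited scale and 0.10 when scaled to the protein-coding total. The genes most like Tor1a over the 18 libraries, by Pearson correlation of log2 values among 7569 genes with a mean of at least 5, were Mthfsd (r = 0.88), Pex19 (0.85) and Cdk2ap1 (0.83). These libraries share clones and stages, so the correlations here and below are descriptions.

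Vps16 is a core subunit of HOPS and CORVET, the tethers that let endosomes and lysosomes fuse, and lies on chromosome 2 at 130424339 to 130444269, plus strand, where Pced1a overlaps it on the other strand. Its control values were 31.3, 17.6 and 34.9 rescaled TPM in OPCs, 33.0, 30.1 and 29.4 at DIV2 and 33.3, 24.5 and 19.7 at DIV4. The null clones had 26.6, 30.0 and 24.1, then 29.2, 41.7 and 33.7, then 28.1, 26.8 and 28.8. The genotypes overlapped at each stage, and the null minus control change was 0.00 (95% interval -0.48 to 0.48) in OPCs, 0.16 (-0.32 to 0.64) at DIV2 and 0.14 (-0.34 to 0.62) at DIV4. Coding transcripts made up 29.7% to 58.8% of the Vps16 signal. From control OPC to DIV4, 2 of the other 7 subunits rose and 0 fell, a share below the 32.3% of all genes called, with a median change of 0.31 beside 0.03 over all genes: Vps39, a HOPS subunit that binds the GTPase RAB7, from 10.04 ± 1.95 to 19.5 ± 2.13 (change 0.90, SE 0.16, adjusted p = 0.000852), and Vps41, from 15.2 ± 4.55 to 24.5 ± 0.817 (change 0.68, SE 0.17, adjusted p = 0.00654). The Vps41 call was lost without control D7 (adjusted p = 0.0694) or E8 (0.0712). Vps41 is a dystonia gene as well. Between genotypes 1 of the 7 was called, Vps18 in OPCs (5.87 ± 0.411 in control and 3.70 ± 0.167 in null; change -0.55, SE 0.12, adjusted p = 0.0121), which was at 0.977 on the deposited scale and at -0.08 (adjusted p = 0.792) over coding transcripts alone, and was lost without 3F (adjusted p = 0.0701) or 7F (0.098). Over all genes 12.2% were called between genotypes in OPCs. Vps16 was most like Arhgdia (r = 0.87), Cdk11b (0.86) and Psmd3 (0.85).

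Gnal encodes the alpha subunit of Golf, the G protein that couples dopamine and adenosine receptors to adenylyl cyclase in the striatum (chromosome 18, 67088216 to 67226792, plus strand, with 4 genes overlapping on the opposite strand, Mppe1 among them). Its control clones had 2.45, 2.97 and 3.81 rescaled TPM in OPCs and 2.36, 1.66 and 1.72 at DIV2. All lay lower at DIV2 (change -0.48, SE 0.15, adjusted p = 0.0237), as did all null clones, which went from 3.28, 2.79 and 2.76 to 2.61, 1.98 and 2.13 (change -0.29, SE 0.15, adjusted p = 0.179). In all 6 clones the level was higher again at DIV4, at 2.23 to 2.55 in control and 2.36 to 2.97 in null. The control fall was lost without D3 (adjusted p = 0.0991), E8 (0.226) or null 7F (0.0604). It turned to 1.2 on the deposited scale, where the median of all genes was 1.99, and to 0.01 when scaled to the protein-coding total, where that median was 0.57; against these medians Gnal was at -0.80 and -0.56. Null and control differed by at most 0.16 at any stage (95% interval at DIV2 -0.17 to 0.48). Of 9 tested genes of Golf signalling, the adenylyl cyclases Adcy5 and Adcy6 were lower in null OPCs, a direction that turned on the deposited scale; Adcy5 was lower at DIV2 as well, and 0 were called at DIV4. Adcy6 was at 7.14 ± 0.901 in control and 4.25 ± 0.501 in null OPCs (change -0.63, SE 0.18, adjusted p = 0.0345; 0.996 on the deposited scale), a call lost without E8 (adjusted p = 0.0952), 3F (0.0806), D6 (0.113) or 7F (0.194). In this list 2 genes rose and 0 fell from control OPC to DIV4, against 32.3% of all genes called. One of them was Gnb2, a G protein beta subunit, with 147 ± 12.4 and 223 ± 80.1 (change 0.55, SE 0.20, adjusted p = 0.047), a call lost with clone as a replicate block (adjusted p = 0.052) and without D7 (0.411), E8 (0.0927), 3F (0.0837), D6 (0.0729) or 7F (0.0919). Gnal was most like Sbf2 (r = 0.84), an unnamed transcript, RP24-84K14.11 (0.77), and Stag1 (0.76).

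Sgce encodes epsilon-sarcoglycan, a membrane protein whose gene is paternally expressed and mutated in myoclonus-dystonia (chromosome 6, 4674350 to 4747207, minus strand). In control OPCs it was at 10.6, 15.6 and 7.58 rescaled TPM, at DIV2 at 16.6, 17.5 and 18.8 and at DIV4 at 18.3, 15.2 and 16.9. The rises were 0.66 (SE 0.17, adjusted p = 0.01) and 0.59 (SE 0.17, adjusted p = 0.0197), and clone D3, the highest as OPCs, had the smallest of them at DIV2 (0.16) and was slightly lower at DIV4 (-0.04). Null clones went from 10.3, 11.9 and 10.1 to 14.5, 13.3 and 13.4 at DIV2 and 15.5, 14.2 and 15.2 at DIV4. Sgce was higher at DIV2 than in OPCs in 6 of 6 clones, but the null changes of 0.33 (adjusted p = 0.184) and 0.44 (adjusted p = 0.0638) were not called. The latter was called in 6 of the 15 alternatives run, among them leaving out control D3 (adjusted p = 0.013) or E8 (0.0238). The control rise was lost without E8 at DIV2 (adjusted p = 0.121) and without D7 (0.138), E8 (0.143) or null 7F (0.0512) at DIV4. Over all alternatives, not only clone removals, it was called in 12 of 14 at DIV2 and 10 of 14 at DIV4. The highest limma adjusted p was 0.132 and 0.239. At DIV2 all null clones lay below all control clones, with a change of -0.34 (SE 0.17, 95% interval -0.71 to 0.04, adjusted p = 0.397).

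The partners of Sgce in the muscle dystrophin complex are other sarcoglycans, dystroglycan and the proteins that bind them. Of the 5 tested, 3 rose and 0 fell from control OPC to DIV4, where 32.3% of all genes were called, and 0 differed between genotypes at any stage (limma). Dtna, which encodes alpha-dystrobrevin, rose from 2.27 ± 0.192 to 22.3 ± 9.64 rescaled TPM (change 2.75, SE 0.24, adjusted p = 8.21e-06), and in null from 2.41 ± 0.512 to 18.9 ± 1.0 (change 2.56, SE 0.24, adjusted p = 6.04e-06). Sgcb, beta-sarcoglycan, rose from 4.18 ± 2.09 to 14.7 ± 2.20 (change 1.66, SE 0.20, adjusted p = 8.64e-05), and in null from 5.50 ± 0.193 to 13.2 ± 1.33 (change 1.12, SE 0.20, adjusted p = 0.000755). The median change of the list was 0.96 in control, beside 0.03 over all genes. Of 9 genes in the imprinted neighbourhood of Sgce, 4 were tested and 0 were called between genotypes or from control OPC to DIV4. Between genotypes, the shares of all genes called were 12.2% in OPCs, 2.83% at DIV2 and 4.88% at DIV4. Sgce was most like Nrep (r = 0.95), Hsdl2 (0.92) and Ppp1r21 (0.92).

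Ano3 encodes a member of the anoctamin family of channels and lipid scramblases (chromosome 2, 110655201 to 110950923, minus strand, with Muc15 overlapping on the other strand). It was a low gene with a large difference between control clones. In OPCs control D7, D3 and E8 had 1.84, 1.61 and 3.62 rescaled TPM and null 3F, D6 and 7F had 1.0, 0.717 and 1.07, without overlap (change -0.76, SE 0.37, adjusted p = 0.196). On the deposited scale the OPC groups overlapped, at 0.448 to 0.535 in control and 0.517 to 1.35 in null, and the change turned to 0.38 (adjusted p = 0.465). Every null group averaged under 1 rescaled TPM, so Ano3 reached the level for testing only through the control groups, where it is higher, and its genotype values are given as a description. At DIV2 and DIV4 control D7 was at 0.356 and 0.347, beside 1.25 and 2.05 in D3 and 2.31 and 2.82 in E8. Null clones were at 0.708 to 0.876 at DIV2 and 0.227 to 0.370 at DIV4, so D7 lay below them at DIV2 and among them at DIV4. At DIV4 the change was -0.94 (SE 0.37, 95% interval -1.73 to -0.15, adjusted p = 0.163). Without D7 the adjusted p was 0.00881 at DIV4 (change -1.39) and 0.0408 in OPCs (change -0.85), on a gene selected in that way. Clone D7 differed from the other control clones in other cell-type markers. Its oligodendrocyte marker sum at DIV4 was 11363 against 1981 to 2065, and its astrocyte marker sum was 1.08 at DIV2 and 2.23 at DIV4, against 26.1 and 140 in D3 and 28.0 and 283 in E8. In null the astrocyte sum was 7.05 to 9.61 at DIV2 and 90.0 to 143.5 at DIV4. Ano3 followed the astrocyte order among the control clones at DIV2 and DIV4, but was lower in every null clone than in D3 and E8. In control OPCs the orders differed: the astrocyte sum was 0.603, 13.3 and 11.1 in D7, D3 and E8, and D3 had the lowest Ano3. In null the astrocyte sum was higher at DIV4 than at DIV2, and Ano3 was lower. The part of these markers in the Ano3 values was not tested.

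Of 9 other anoctamins 4 were tested, and Ano10 was higher in null at each stage: 3.90 ± 0.500 against 7.41 ± 0.645 rescaled TPM in OPCs (change 0.78, SE 0.15, adjusted p = 0.00532), 3.99 ± 0.954 against 8.29 ± 0.997 at DIV2 (0.91, adjusted p = 0.00406) and 4.12 ± 0.816 against 9.99 ± 0.562 at DIV4 (1.11, adjusted p = 0.000875). Mutations in the human gene cause a cerebellar ataxia. The groups did not overlap at any stage, and the DIV4 call held in 14 of 15 alternatives, with an adjusted p of 0.128 on the deposited scale. The earlier calls were lost without 7F (adjusted p = 0.0725 in OPCs and 0.0789 at DIV2) and, at DIV2, without 3F (0.0655). Ano8 was lower in null OPCs (7.81 ± 1.97 in control and 4.21 ± 0.360 in null; change -0.73, SE 0.16, adjusted p = 0.00906), but at 0.924 on the deposited scale, and this call was lost without E8 (adjusted p = 0.069) or 7F (0.0624). Over all genes, 12.2% were called between genotypes in OPCs, 2.83% at DIV2 and 4.88% at DIV4. Ano3 was most like Grm5 (r = 0.85), Polr2f (0.84) and Itsn1 (0.80).

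Gch1 encodes GTP cyclohydrolase, which starts tetrahydrobiopterin synthesis (chromosome 14, 47153895 to 47189413, minus strand, with processed pseudogenes overlapping). It was at 0.0557 to 0.409 rescaled TPM over the 18 libraries and was not tested. Of the other genes of tetrahydrobiopterin and dopamine synthesis, 5 of 8 were tested. Qdpr encodes dihydropteridine reductase, which recycles the cofactor. It was at 18.5 ± 1.92 in control and 19.0 ± 2.57 in null OPCs, and at DIV4 at 73.2, 30.9 and 49.8 in control D7, D3 and E8 but 16.2, 22.7 and 18.5 in null 3F, D6 and 7F. The groups did not overlap at DIV4 (change -1.31, SE 0.24, adjusted p = 0.00637), and the genotype call was lost without null 3F (adjusted p = 0.0847) or 7F (0.0867). From OPC to DIV4 Qdpr rose by 1.34 in control (adjusted p = 0.000977), with a change of 0.0074 in null (adjusted p = 0.989). The difference between these changes was -1.34 (SE 0.34, adjusted p = 0.0496), a call lost without D7 (adjusted p = 0.0661), E8 (0.147), 3F (0.196), D6 (0.144) or 7F (0.266). Ddc, aromatic amino acid decarboxylase, was at 0.0089, 0.836 and 1.46 in control OPCs and 41.7, 4.89 and 4.88 at DIV4, where D7 again stood apart (change 2.78, SE 0.59, adjusted p = 0.00317, or 1.47 without D7). In null it was at 0.277 to 0.578 and then 2.02 to 2.18. Ddc reached the level for testing only through the differentiated groups, where it is higher, so its change is given as a description.

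Prkra encodes PACT, which activates the kinase PKR under stress and binds Dicer (chromosome 2, 76629898 to 76648015, minus strand). Control OPCs had 13.2, 14.2 and 8.80 rescaled TPM and null OPCs 16.1, 15.4 and 18.9, without overlap (change 0.47, SE 0.18, adjusted p = 0.104). Control clones were at 8.45, 7.47 and 7.11 at DIV2 and at 5.61, 7.13 and 9.89 at DIV4, falls of -0.57 (SE 0.18, adjusted p = 0.0237) and -0.62 (SE 0.18, adjusted p = 0.0172). Null clones were at 8.94, 8.75 and 8.62 and then 7.99, 7.20 and 6.94, falls of -0.86 (SE 0.18, adjusted p = 0.00273) and -1.08 (SE 0.18, adjusted p = 0.000407). Prkra was lower at DIV2 than in OPCs in 6 of 6 clones and lower at DIV4 in 5 of 6, control E8 being the exception. At DIV4 the genotypes did not differ beyond their spread (change 0.00, 95% interval -0.38 to 0.38).

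The direction of the Prkra fall in control depends on scaling. It turned to 1.74 at DIV2 and 1.72 at DIV4 on the deposited scale, and to 0.05 and 0.04 when scaled to the protein-coding total, where the medians of all genes were 1.99 and 2.04, and 0.57 and 0.62. Against these medians Prkra was lower in each case (-0.26 and -0.33, -0.52 and -0.58). The control calls were lost at DIV2 without D7 (adjusted p = 0.057), D3 (0.156), 3F (0.0509), D6 (0.0506) or 7F (0.052) and at DIV4 without D7 (0.198) or D3 (0.122). In null OPCs the 3 noncoding features took 34.8% of the deposited TPM in D6 and 0.789% and 1.06% in 3F and 7F. There the fall was -0.46 at DIV2 (adjusted p = 0.474) and -0.65 at DIV4 (adjusted p = 0.252) on the deposited scale, and the DIV2 call was lost without 7F (adjusted p = 0.0589). In null, cell-cycle genes moved with it: their sum was 546 to 663 in OPCs and 41.2 to 88.3 at DIV2 and DIV4. In control OPCs they did not follow Prkra, since D3 had the lowest sum (63.0, against 678 in D7 and 538 in E8) and the highest Prkra (14.2). The part of these genes in Prkra was not tested. Prkra was most like Rps20 (r = 0.96), Asnsd1 (0.96) and Rps6ka6 (0.95).

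All 8 genes listed around Prkra (PKR, its target eIF2 alpha, the response to eIF2 phosphorylation, and Dicer partners) were tested, and 2 were higher in null at DIV4. Of all genes, 4.88% were called there and 12.2% in OPCs. Ppp1r15a, which encodes the GADD34 subunit that reverses eIF2 phosphorylation, was at 5.60 ± 2.69 in control and 12 ± 1.97 in null (change 1.05, SE 0.25, adjusted p = 0.0307). Ddit3, the stress transcription factor CHOP, was at 15.7 ± 6.46 and 31.6 ± 6.40 (change 1.02, SE 0.26, adjusted p = 0.0376). In OPCs 2 of the list were higher in null, Eif2ak2 and Eif2s1, and Ddit3 was lower, at 4.36 ± 0.680 against 9.95 ± 3.23 (change -0.99, adjusted p = 0.0235; 0.725 on the deposited scale). That call was lost without E8 (adjusted p = 0.122), 3F (0.116), D6 (0.0573) or 7F (0.131). Eif2s1, which encodes eIF2 alpha, was at 18.6 ± 2.05 in control and 27.9 ± 3.87 in null OPCs (change 0.56, SE 0.17, adjusted p = 0.0439), lost without D3 (adjusted p = 0.0789), E8 (0.154), 3F (0.135) or 7F (0.220). Each DIV4 call was lost without D7 (adjusted p = 0.0773 for Ppp1r15a and 0.0537 for Ddit3), E8 (0.104 and 0.124), 3F (0.114 and 0.122), D6 (0.133 and 0.157) or 7F (0.208 and 0.204). Over all alternatives run, the Ppp1r15a call held in 5 of 15 and the Ddit3 call in 7 of 15.

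Kmt2b encodes a histone H3 lysine 4 methyltransferase of the COMPASS family (chromosome 7, 30568858 to 30588726, minus strand). It ranged from 1.46 to 4.97 rescaled TPM over the 18 libraries and was called in no comparison. Its null minus control change was -0.05 in OPCs (95% interval -0.73 to 0.63), 0.06 at DIV2 (-0.62 to 0.74) and -0.14 at DIV4 (-0.82 to 0.54). Control D3 and null D6 OPCs had the lowest values, 1.46 and 1.54, beside 2.69 to 4.85 in the other 4 OPC libraries. Of 10 tested COMPASS genes, 1 rose and 3 fell from control OPC to DIV4, near the 32.3% of all genes called, and 0 were called between genotypes at DIV2 or DIV4 (limma). Genotype calls covered 12.2% of all genes in OPCs, 2.83% at DIV2 and 4.88% at DIV4. Wdr5, a shared core subunit, fell from 15 ± 2.97 to 7.26 ± 1.0 (change -0.95, SE 0.13, adjusted p = 0.000189) and Men1, menin, from 16.2 ± 3.20 to 9.13 ± 0.906 (change -0.75, SE 0.14, adjusted p = 0.00127); on the deposited scale these turned to 1.48 and 1.71. Men1 was the 1 gene of the list called lower in null OPCs (11.02 ± 1.25; change -0.51, SE 0.14, adjusted p = 0.0299; 1.36 on the deposited scale), lost without E8 (adjusted p = 0.140), 3F (0.158), D6 (0.053) or 7F (0.134). Kmt2b was most like the small RNA Gm22478 (r = 0.89), Atxn2 (0.84) and Pmm2 (0.83).

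Tubb4a had the largest changes with differentiation of the 8 tested (chromosome 17, 57080066 to 57087782, minus strand; 1 transcript, which shares 1.87% of its 31-base words with other genes). Control D7, D3 and E8 had 7.37, 7.0 and 8.43 rescaled TPM as OPCs, 61.0, 47.4 and 96.3 at DIV2 and 120, 54.9 and 40.0 at DIV4. Each control clone rose strongly and to its own extent, E8 peaking at DIV2 and D7 and D3 at DIV4. The mean changes were 2.95 (SE 0.39, adjusted p = 9.35e-05) and 2.93 (SE 0.39, adjusted p = 0.000137), and both were called in all 14 alternatives run. Null 3F, D6 and 7F had 15.1, 6.17 and 5.58 as OPCs, 31.6, 43.3 and 33.6 at DIV2 and 17.8, 26.7 and 19.7 at DIV4. All 3 null clones were higher at both stages than as OPCs (changes 2.01, adjusted p = 0.00169, and 1.27, adjusted p = 0.0203) and lower at DIV4 than at DIV2, by -0.79 to -0.67. The null rise at DIV4 was lost without D6 (adjusted p = 0.222) or 7F (0.168), and clone 3F, the highest as OPCs, had the smallest rise (0.22).

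Between genotypes Tubb4a overlapped in OPCs (change 0.09, SE 0.39, adjusted p = 0.908). At DIV2 every null clone lay below every control clone, with a change of -0.85 that was not called (SE 0.39, 95% interval -1.68 to -0.02, adjusted p = 0.327). At DIV4 they did not overlap either, and the null mean was 0.299 times the control mean (change -1.56, SE 0.39, adjusted p = 0.0339). The difference between the rises to DIV4 was -1.65 (SE 0.55, adjusted p = 0.113). Clone D7 had the largest part in the control mean at DIV4: without it the change was -1.12 (adjusted p = 0.113). The call was also lost without 3F (adjusted p = 0.122), D6 (0.0696) or 7F (0.198), with no filter (0.0987) and in a fit of only the 6 libraries (0.154), while the change stayed between -1.90 and -1.12.

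Oligodendrocyte markers moved with Tubb4a. Their median change between genotypes at DIV4 was -1.39, with 1 of 8 (Mobp) called lower and 0 higher, where 4.88% of all genes were called. The marker sum was 1981 to 11363 in control and 1100 to 2051 in null. In bulk RNA, fewer cells of a type and less RNA per cell cannot be told apart. Tubb4a was 1.06%, 2.66% and 2.02% of the DIV4 marker sum in control D7, D3 and E8 and 1.62%, 1.30% and 1.58% in null 3F, D6 and 7F, so this ratio overlapped. The part of the oligodendrocyte markers in the Tubb4a difference was not tested. The genes most like Tubb4a were Sema5a (r = 0.97), Agps (0.96) and Rab40c (0.96), and among the dystonia genes its correlation over the 18 libraries was 0.74 with Sgce and -0.79 with Prkra.

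Among beta-tubulins, microtubule subunits, Tubb4a took a larger share after differentiation than in OPCs. Its share of their summed rescaled TPM in control was 0.946% ± 0.222 as OPCs, 7.84% ± 2.31 at DIV2 and 11.1% ± 6.79 at DIV4, and in null 1.30% ± 0.890, 6.79% ± 0.743 and 5.0% ± 0.717 (SD, n = 3). The genotypes overlapped at DIV2 and DIV4 in this share. At DIV4 it was 18.2%, 10.2% and 4.72% in control D7, D3 and E8, and E8 had 10.3% at DIV2. Tubb2a, Tubb2b and Tubb4b, which are in the sum, share 56.4%, 43.1% and 48.6% of their 31-base words with other genes, so the share is uncertain. Of 9 other tubulins tested, 2 rose and 3 fell from control OPC to DIV4 (32.3% of all genes were called). By limma 0 were called between genotypes at DIV4, where 4.88% of all genes were. Tubb3 rose from 16.4 ± 5.68 to 64.8 ± 26.0 (change 1.88, SE 0.33, adjusted p = 0.000981) and in null from 7.45 ± 2.61 to 56.1 ± 15.5 (change 2.77, SE 0.33, adjusted p = 3.96e-05). Tubb5, a widely expressed beta-tubulin, fell from 279 ± 117 to 118 ± 27.5 (change -1.14, SE 0.27, adjusted p = 0.00572), a call lost without D7 (adjusted p = 0.0858) and turned to 1.62 on the deposited scale. Tuba1a (change 0.73, adjusted p = 0.0387) and Tuba1b (change -1.42, adjusted p = 0.0217; 1.33 on the deposited scale) share 77.0% and 68.9% of their 31-base words with other genes and are uncertain. Both calls were lost without D7 (adjusted p = 0.268 for Tuba1a and 0.201 for Tuba1b), E8 (0.209 and 0.0946) or 7F (0.0857 and 0.0511), and that of Tuba1a also without 3F (0.0566) or D6 (0.0515). Tuba1c was the 1 other tubulin called between genotypes, but its control groups lay under 1 rescaled TPM, so it reached the level for testing only through null OPCs and DIV2, where it is higher, and the calls are given as a description. It was higher in null in OPCs (0.443 ± 0.110 in control and 4.39 ± 0.855 in null; change 1.89, SE 0.18, adjusted p = 1.86e-05, called in all 13 alternatives run) and at DIV2 (0.326 ± 0.103 and 1.73 ± 0.328; change 1.04, SE 0.18, adjusted p = 0.0057). The DIV2 call was lost without 3F (adjusted p = 0.0527), D6 (0.0654) or 7F (0.0797), and 49.0% of its 31-base words are shared with Tuba1b, so its level is uncertain.

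**Figure D4:**
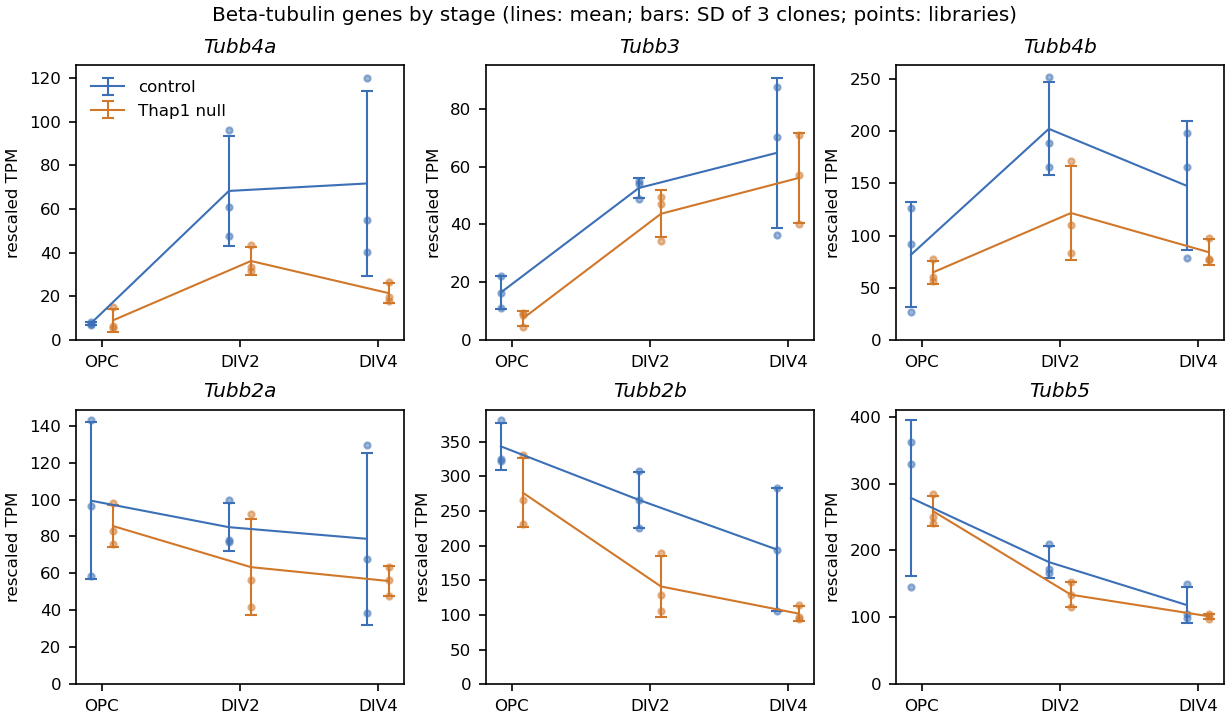
Rescaled TPM (y axis, from 0) of 6 beta-tubulin genes by stage (x axis), control in blue and Thap1 null in orange; lines join group means, bars are the SD of 3 clones and points are libraries. Tubb4a and Tubb3 are higher after differentiation, Tubb5 is lower on this scale but not on the deposited one, and at DIV4 the control mean of Tubb4a (71.6) exceeds the null mean (21.4).

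A further 27 genes linked to inherited dystonia gave a wider view, and 20 were tested. In OPCs 1 was higher and 3 were lower in null, at DIV2 0 and 1, and at DIV4 2 and 0, beside 12.2%, 2.83% and 4.88% of all genes called. The median changes were -0.06, 0.15 and 0.00, beside 0.04, 0.00 and -0.02 over all genes. Adcy5, the adenylyl cyclase that acts downstream of Golf in the striatum, was at 5.49 ± 0.704 in control and 2.16 ± 0.283 in null OPCs (change -1.04, SE 0.12, adjusted p = 9.07e-05) and at 6.52 ± 0.380 and 4.30 ± 0.557 at DIV2 (change -0.51, SE 0.12, adjusted p = 0.0308). At DIV4 it was at 4.46 ± 0.255 and 5.18 ± 0.359. The DIV2 call was lost without D7 (adjusted p = 0.057), D3 (0.0869), E8 (0.0659), 3F (0.133), D6 (0.153) or 7F (0.142). On the deposited scale the OPC change of Adcy5 turned to 0.48, where the median of all genes was 1.53.

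The other calls in OPCs were Yy1, a zinc-finger factor (16.3 ± 3.83 in control and 8.03 ± 2.90 in null; change -0.96, SE 0.27, adjusted p = 0.0313), Ciz1 (14.7 ± 6.10 and 8.26 ± 1.01; change -0.70, SE 0.20, adjusted p = 0.0381) and Eif2ak2, which encodes PKR, the kinase that Prkra activates (1.85 ± 0.783 and 3.73 ± 0.272; change 0.77, SE 0.21, adjusted p = 0.0299). Yy1 and Ciz1 turned to 0.91 and 1.16 on the deposited scale. The Yy1 call was lost without D3 (adjusted p = 0.0659), E8 (0.157), 3F (0.077) or 7F (0.193), that of Ciz1 without E8 (0.106), 3F (0.103), D6 (0.164) or 7F (0.172), and that of Eif2ak2 without D3 (0.094), 3F (0.135), D6 (0.104) or 7F (0.14).

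At DIV4 Slc39a14, a zinc and manganese transporter, was at 6.88, 19.2 and 18 rescaled TPM in control D7, D3 and E8 and at 41.5, 34.6 and 35.1 in null 3F, D6 and 7F (change 1.39, SE 0.30, adjusted p = 0.0175). Slc2a1, the glucose transporter GLUT1, was at 5.56, 4.68 and 5.65 in control and 12.9, 10.9 and 10.4 in null (change 0.97, SE 0.27, adjusted p = 0.0498). Neither gene's groups overlapped. The first call was lost without 3F (adjusted p = 0.122), D6 (0.0526) or 7F (0.122), and the second without D7 (0.0961), 3F (0.237), D6 (0.119) or 7F (0.215). From control OPC to DIV4, 3 of the 20 rose and 2 fell, beside 32.3% of all genes called. Besides Vps41, Bzrap1 (Tspoap1), which encodes a synaptic scaffold, rose from 4.10 ± 2.56 to 14 ± 10.2 (change 1.47, SE 0.45, adjusted p = 0.0217), a call lost without D3 (adjusted p = 0.0663). Pank2, the pantothenate kinase of coenzyme A synthesis, fell from 11.2 ± 2.37 to 6.51 ± 0.962 (change -0.69, SE 0.14, adjusted p = 0.00235), but was at 1.66 on the deposited scale.

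**Figure D5:**
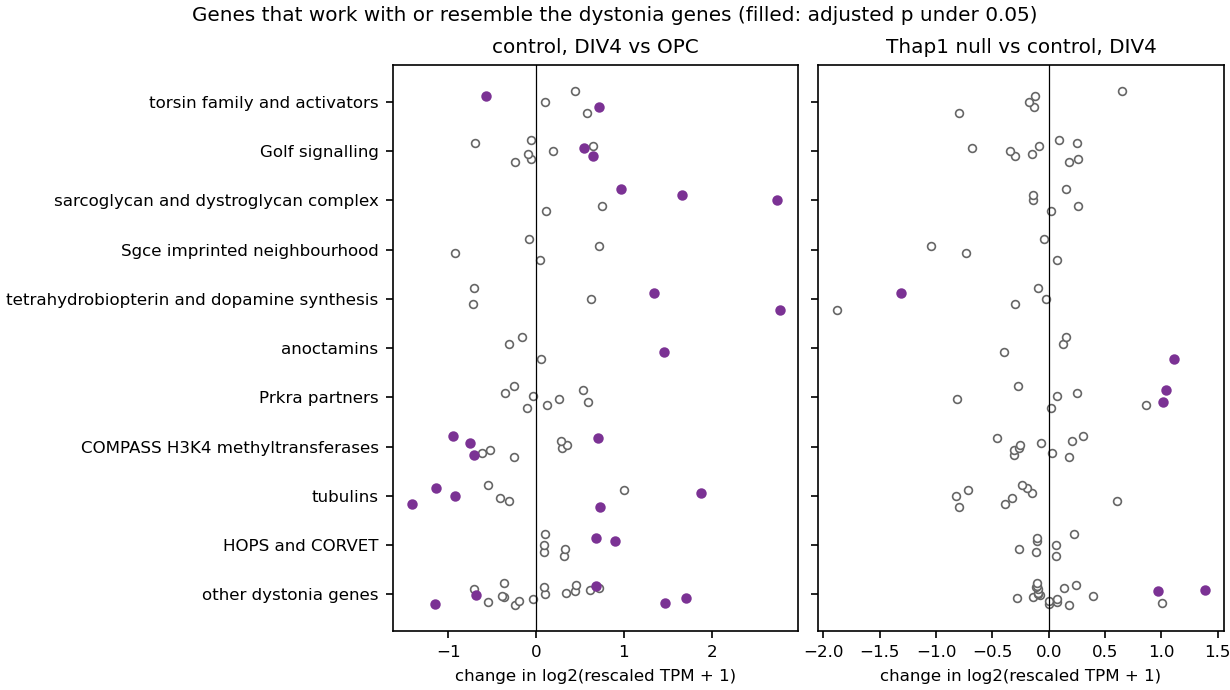
Change in log2(rescaled TPM + 1) of genes that work with or resemble the dystonia genes, from OPC to DIV4 in control (left) and null against control at DIV4 (right), by list. Each point is a tested gene, filled where the adjusted p is under 0.05; on the right these are Qdpr (lower) and Ano10, Ppp1r15a, Ddit3, Slc39a14 and Slc2a1 (higher).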

How the data were processed

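RNA was measured in 18 libraries, 3 clones for each of 6 combinations of genotype and stage. Per the labels' protocols, libraries came from total RNA with a stranded kit and ribosomal RNA removal. The authors deposited TPM per transcript for 93666 transcripts; per the submitters' processing notes STAR, Picard and genome build mm10 were used, while the quantifier, annotation and strand setting are not given in the sources used here. The other deposited column is a transcript length, of no stated unit, and was not used in a test.

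TPM was summed by gene symbol (25 symbols turned into dates were restored from transcript identifiers) and divided by median-of-ratios factors from 10758 genes above 0 in all libraries with a geometric mean of at least 1 TPM. This takes the typical gene as constant between libraries. Biotypes and coordinates came from GENCODE M21 on GRCm38, which held 96.6% of the transcripts. Genes with a mean of at least 1 rescaled TPM were tested with limma 3.58.1 (R 4.3.3) on log2(value + 1), with one mean per group over all 18 libraries, eBayes with a mean trend and Benjamini-Hochberg adjustment over 12475 genes; the comparison over all stages used clone means. On data simulated for null against control at DIV4 (12475 genes), 66% of 100 genes changed by 1 and 93% of 100 changed by 2 on the log2 scale were called, as were 11 unchanged genes. The changed genes were drawn from those with a mean log2 value above 2, which leaves out Gnal and Ano3. Each simulated gene had the same spread in every group and independent libraries, unlike the data. These shares are therefore not a sensitivity for the dystonia genes.

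The same clone at 2 stages is the same cell line, so clone pairs the libraries. Deviations of such pairs from their group means correlated at 0.12 on average (18 pairs, -0.01 to 0.42), against -0.06 for different clones.

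The members, gene lists and tests were chosen with earlier results of these data known. Named in full were the members; from each list, genes called from control OPC to DIV4 or between genotypes at DIV4 with a mean of at least 5 rescaled TPM, at most the 2 largest in each direction; and the 3 genes most like each member. List genes called between genotypes only in OPCs or at DIV2 were named after their values were seen. Alternatives were the deposited scale, scaling to the protein-coding total, coding transcripts only, another pseudocount (0.1), a filter at a mean of 5 or none at all, a fit restricted to the libraries of a comparison, removal of 1 clone at a time, and clone as a replicate block. The interactions at DIV2 and from DIV2 to DIV4 and a fit without the 3 control OPC libraries were added after seeing the data. The interaction from DIV2 to DIV4 is left out of the counts of results under alternatives. Python 3.11.15 with numpy 2.4.6, pandas 2.3.3, scipy 1.17.1 and matplotlib 3.10.9 was used.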

Additional observations from a re-analysis of the deposited data

How the results depend on the processing

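Of 80 results for single dystonia genes, 13 were called, and 3 of these (Tubb4a from OPC to DIV2 in both genotypes and to DIV4 in control) were called in every alternative run. Of 1096 values under alternatives, 998 kept the call or stayed uncalled (87 of the uncalled ones with another sign), 39 lost a call, 37 gained one and 22 reversed a direction, 17 of them on the deposited scale. On that scale null minus control in OPCs turned to 1.66 for Tor1a, 1.22 for Gnal, 1.69 for Sgce, 1.23 for Kmt2b and 1.97 for Vps16, and to 0.38 for Ano3 (called on neither scale), with 0.48 for Adcy5, 0.996 for Adcy6, 0.924 for Ano8, 0.725 for Ddit3, 1.36 for Men1, 0.977 for Vps18, 1.16 for Ciz1 and 0.91 for Yy1. From control OPC to DIV2 it gave 1.2 for Gnal and 1.74 for Prkra, and to DIV4 2.28 for Tor1a, 1.5 for Gnal, 1.24 for Ano3, 1.72 for Prkra and 2.51 for Vps16, with 1.71 for Men1, 1.66 for Pank2, 1.80 for Tor2a, 1.33 for Tuba1b, 1.62 for Tubb5 and 1.48 for Wdr5. The interaction there was -1.3 for Gnal and -1.99 for Vps16 at DIV4, and -1.18 for Gnal, -1.31 for Kmt2b and -1.98 for Vps16 at DIV2. Scaled to the protein-coding total, control changes were 0.013 for Gnal and 0.053 for Prkra at DIV2, and 0.55 for Tor1a, 0.041 for Prkra, 0.63 for Vps16 and 0.10 for Tor2a at DIV4. These scalings move the median of all genes by up to 2.04, and the cause of the reversals was not tested.

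Counts of genes called over the whole table moved as follows. On the deposited scale they were 10372 for null against control in OPCs (1520 in the reported fit), 200 at DIV2 (353), 345 at DIV4 (609) and 3118 over all stages (424), 10567 and 11035 for control DIV2 (4374) and DIV4 (4031), 2317 for null DIV2 (3476), and 9409 and 9339 for the interaction at DIV4 (347) and DIV2 (58). Scaled to the protein-coding total they were 2865 for genotype in OPCs, 6396 for control DIV4 and 287 for the DIV2 interaction. The share of called genes that were higher went from 50.6% to 99.6% (deposited) and 93.1% (coding total) for genotype in OPCs, from 50.1% to 99.2% and 90.0% for control DIV2, from 50.2% to 99.7% and 93.7% for control DIV4, from 50.8% to 79.7% and 70.5% for null DIV2, from 49.3% to 79.7% and 78.5% for null DIV4, from 54.4% to 32.2% on the deposited scale for genotype at DIV4, from 58.6% to 44.5% on it at DIV2, from 59.2% to 95.3% and 75.4% over all stages, and from 50.4% and 56.9% to 0.404% and 0.418% (deposited) or 10.6% and 11.1% (coding total) for the interactions at DIV4 and DIV2. Fits of only the libraries compared called 249 genes for genotype in OPCs, 160 at DIV4, 2081 for control DIV2, 273 for control DIV4 and 72 for the DIV4 interaction. A mean of at least 5 gave 213 for genotype at DIV2 and 30 for the DIV2 interaction, and no filter gave 209 over all stages. Without the 3 control OPC libraries 593 genes were called between genotypes at DIV2 and 1160 at DIV4.

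Leaving out 1 clone at a time gave 348 to 2370 calls for genotype in OPCs, 110 to 647 at DIV2, 113 to 1095 at DIV4, 87 to 1138 over all stages, 2689 to 4688 for control DIV2, 2350 to 4462 for control DIV4, 1439 to 4121 for null DIV2, 2171 to 4825 for null DIV4, 16 to 1183 for the DIV4 interaction and 12 to 304 for the DIV2 interaction. With clone as a replicate block the interactions called 528 and 89 genes, and the block changed no call of a dystonia gene. Coding transcripts of Thap1 were lower in null at each stage in all alternatives run. TPM gives no depth, so no counting error could be stated.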
